A study of Mus musculus with 6 samples.

Results

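The messenger RNAs of 10 genes that defend cells against ferroptosis or build the lipids that peroxidize were examined in mouse colon. The genes were given by name, and were chosen with earlier results of these data known. All 10 of *Slc7a11*, *Slc3a2*, *Gclc*, *Gclm*, *Gss*, *Gpx4*, *Aifm2*, *Acsl4*, *Lpcat3* and *Acsf2* were found among the 27202 genes listed. Colonic tissue came from 3 *Nedd4l* fl/fl VillinCre mice, in which Cre under the Villin promoter deletes *Nedd4l* from intestinal epithelial cells (IECs), here called cKO as in the sample titles, and from 3 *Nedd4l* fl/fl littermates without Cre, called WT. The mice were on a C57BL/6J background and were 8 to 10 weeks old. Each had 2% dextran sulfate sodium (DSS), which injures the colonic epithelium, in the drinking water for 7 days, and no library came from mice without DSS. Values are normalized counts, that is reads per gene divided by a size factor of the library. Differences were tested with limma on log2(normalized count + 1), with Benjamini-Hochberg adjustment over 16246 genes whose mean was 10 or more. Values in sets of 3 follow the replicate numbers 1, 2 and 3, which are not stated to pair the mice.

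Ferroptosis is a form of cell death in which iron drives the peroxidation of membrane lipids. Cells hold it back by importing cystine through the SLC7A11 and SLC3A2 transporter, making glutathione from the cysteine, and letting the selenoprotein GPX4 use glutathione to reduce lipid peroxides. AIFM2, also called FSP1, acts beside GPX4 by reducing ubiquinone, whereas ACSL4 and LPCAT3 place polyunsaturated fatty acids into phospholipids, which are the substrate of peroxidation. The colon lining is a tissue in which this balance has been studied in colitis.

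*Nedd4l* itself was at 476, 942 and 566 normalized counts in cKO replicates 1, 2 and 3 and at 1241, 1271 and 1266 in WT replicates 1, 2 and 3. cKO replicate 2 therefore kept more of the transcript than the other cKO libraries, although it stayed below each WT library. The log2 fold change was −0.99 with all libraries (adjusted p = 0.225, limma) and −1.28 without cKO replicate 2 (adjusted p = 0.0130, limma). Over the genes tested, cKO replicate 2 also correlated better with the WT libraries (mean 0.977) than with the other cKO libraries (0.966). For cKO replicates 1 and 3 these means were 0.948 and 0.973 with WT, and 0.963 and 0.975 with cKO libraries. Each WT library correlated better with its own genotype. In the fit over all genes, an adjusted p under 0.05 was reached by 0 of 16246 on the lower side in cKO mice (0%) and by 0 on the higher side (0%; limma). At an unadjusted p under 0.05, 7.08% were lower and 6.91% were higher. All cKO libraries lay below all WT libraries for 10.9% of genes, and above them for 10.5%. The epithelial marker genes *Epcam*, *Cdh1*, *Vil1* and *Krt8* were abundant in every library, and 11 epithelial markers summed to between 242434 and 276287 normalized counts in cKO and between 257712 and 279966 in WT mice. *Xist* was between 14083 and 20056 normalized counts in all 6 libraries. The tissue also holds stromal and immune cells, so that fewer cells of a type and less RNA per cell cannot be told apart in any value below.

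Of these 10 genes, 0 passed an adjusted p of 0.05 in either direction (limma), while at an unadjusted p under 0.05 *Gclm* was lower and no gene was higher. Without overlap between the genotypes, *Gclm* and *Gss* were below and *Lpcat3* was above. These are 1 of 10 genes lower at the unadjusted threshold, against 7.08% of all genes, and 2 below and 1 above without overlap, against 10.9% and 10.5%. The median log2 fold change of the 10 genes was 0.014, with 5 genes on each side of 0, and that of all genes tested was 0.0013.

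**Figure D1:**
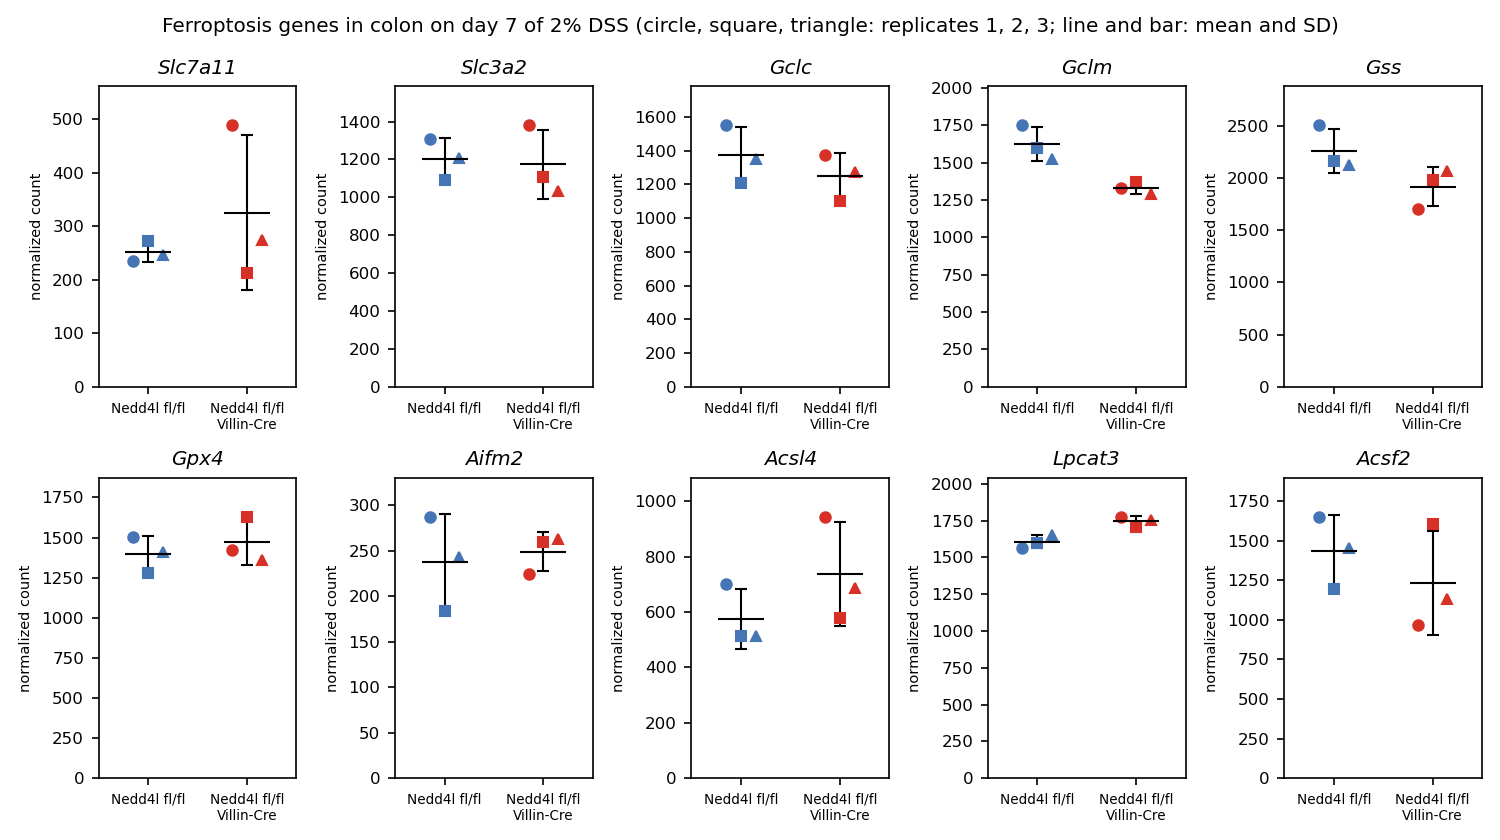
Normalized count (y axis, from 0) of each of the 10 genes in the 3 WT (blue) and 3 cKO (red) libraries; circles, squares and triangles are replicates 1, 2 and 3, and the line and bar give the mean and SD. The genotypes do not overlap for *Gclm*, *Gss* and *Lpcat3*, and the mean of *Slc7a11* in cKO mice is raised by replicate 1 at 489.

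Levels of different genes can be set side by side only per length. Per kilobase of the gene model, *Gpx4* was highest, at a mean of 832 normalized counts over the 6 libraries, and its range of 744 to 945 did not meet that of any other gene. *Lpcat3* (513), *Acsf2* (389), *Gss* (353), *Gclc* (348) and *Slc3a2* (337) followed, and neighbors in this order overlapped across the libraries. *Gclm* (235), *Acsl4* (121), *Aifm2* (59.1) and *Slc7a11* (20.7) came last, each separate from the next. The gene model of *Slc7a11* is 13922 bases long, the longest of the 10, which lowers its value on this scale.

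Cystine uptake was examined first. *Slc7a11* (ENSMUSG00000027737, chromosome 3 of GRCm38 from 49892526 to 50443614, minus strand) encodes the light chain that carries cystine in and glutamate out. Its normalized count was 489, 212 and 274 in cKO replicates 1, 2 and 3 and 236, 272 and 247 in WT replicates 1, 2 and 3. One cKO library was far above the rest, another was below all WT libraries, and the genotypes overlapped. Group means were 325 ± 145 (SD, n = 3) and 251 ± 18.3 (SD, n = 3), with a fitted log2 fold change of 0.28 (SE 0.29, 95% interval −0.39 to 0.96, adjusted p = 0.671 from limma). The log2 fold change was −0.06 without cKO replicate 1 and 0.54 without cKO replicate 2.

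cKO replicate 1 was also highest in summed neutrophil, fibroblast, B cell and endothelium marker RNA. *S100a9*, a neutrophil gene, was at 2680.1, 27.6 and 348 normalized counts in cKO replicates 1, 2 and 3 and between 10.8 and 15.8 in WT mice. Of 7 neutrophil markers 6 were higher in cKO mice by log2 fold change, and none was at 0 in all WT libraries, although *Cxcr2* was at 0 in 2 of them. The whole list summed to between 2989 and 9641 in cKO and between 2969.6 and 3234 in WT mice. *Ly6g* was between 2200.2 and 3136 everywhere. Without it, a choice made after the values were seen, the other 6 markers summed to 7155, 157 and 1035 against 140.2, 98.1 and 127. Fibroblast markers summed to 42446, 20966 and 22452 in cKO and to 18057, 10564 and 13330.3 in WT replicates 1, 2 and 3, with all 6 higher by log2 fold change. B cell markers summed to 4399, 2206 and 1667 in cKO and to 1245, 2129 and 2958 in WT replicates 1, 2 and 3. Endothelium markers summed to 3432, 2172 and 2074 against 2121, 1421 and 2039. The part of any of these cells in the *Slc7a11* value was not tested.

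**Figure D2:**
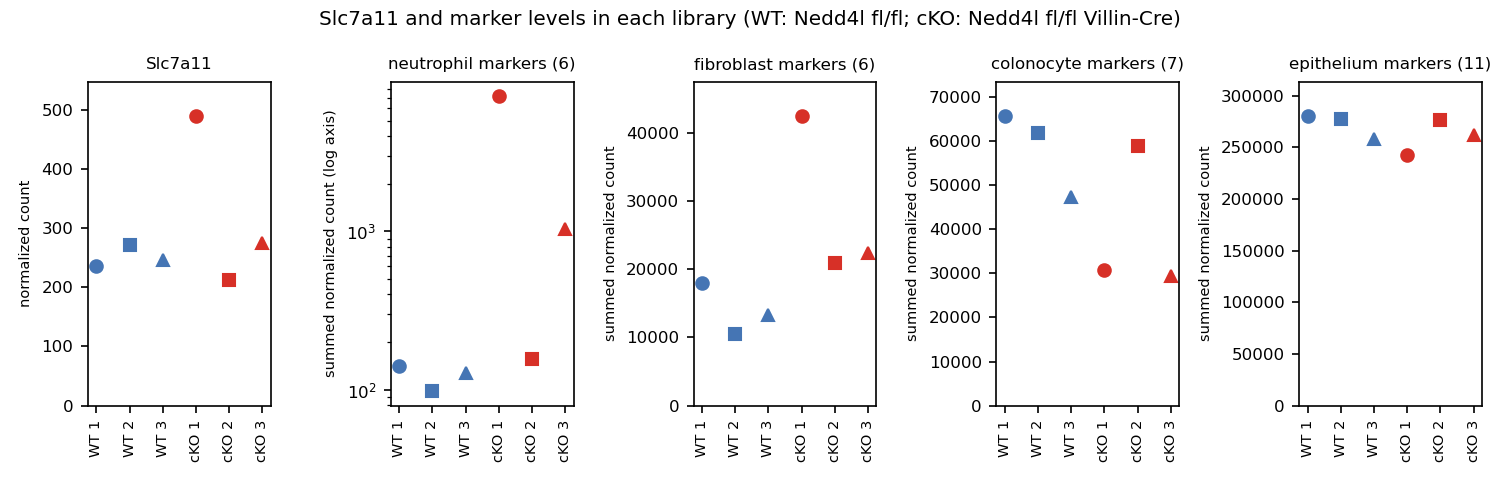
Normalized count of *Slc7a11* and summed normalized counts of neutrophil (without *Ly6g*, log axis), fibroblast, colonocyte and epithelium markers in each library; blue is WT and red is cKO. cKO replicate 1 is highest for *Slc7a11* (489), for the neutrophil markers (7155) and for the fibroblast markers (42446), while epithelium markers lie between 242434 and 279966 in all libraries.

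*Slc3a2* (ENSMUSG00000010095, chromosome 19 from 8706882 to 8723369, minus strand) encodes the heavy chain CD98, which brings SLC7A11 and other light chains to the plasma membrane. It stood at 1380.3, 1109 and 1033 in cKO replicates 1, 2 and 3 and at 1309, 1093 and 1208 in WT replicates 1, 2 and 3, so that the libraries were mixed. Group means were 1174 ± 183 (SD, n = 3) and 1203 ± 108 (SD, n = 3), with a fitted log2 fold change of −0.04 (SE 0.13, adjusted p = 0.894 from limma). The 95% interval of the difference ran from −0.33 to 0.25, and the sign turned without cKO replicate 3 (0.04) or without WT replicate 1 (0.02).

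The other light chains that pair with SLC3A2 were read beside it. Of 6 listed light chains, *Slc7a11* included, 5 were tested and *Slc7a10* was not analysed here. None passed an unadjusted p of 0.05, against 14% of all genes. All 5 overlapped between the genotypes, where 21.4% of all genes did not. *Slc7a5*, the large neutral amino acid carrier LAT1, was at 666, 411 and 463 in cKO against 731, 569 and 487 in WT mice (log2 fold change −0.23, adjusted p = 0.648 from limma). *Slc7a7*, the cationic amino acid carrier y+LAT1, was at 797, 630.2 and 739 against 663, 586 and 584 (0.24, adjusted p = 0.391 from limma). *Slc7a8* and *Slc7a6* had log2 fold changes of −0.21 and 0.06, and *Slc7a6* turned to −0.07 without cKO replicate 1. Within a library, *Slc7a11* was 0.354, 0.191 and 0.266 of the *Slc3a2* count in cKO and 0.180, 0.249 and 0.204 in WT mice. This ratio differed by 0.33 on the log2 scale (exact permutation test, two-sided p = 0.30, where 3 against 3 can reach no less than 0.10).

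The transcripts of glutathione synthesis, *Gclc*, *Gclm* and *Gss*, each had a negative log2 fold change, none with an adjusted p under 0.05 (limma). All cKO libraries were below all WT libraries for *Gclm* and *Gss*, as for 10.9% of all genes. *Gclc* (ENSMUSG00000032350, chromosome 9 from 77754535 to 77794485, plus strand) encodes the catalytic subunit of glutamate-cysteine ligase, the rate-limiting step. It was at 1373, 1104 and 1275 in cKO and at 1551, 1211 and 1354 in WT replicates 1, 2 and 3, which overlap. Means of 1251 ± 136 (SD, n = 3) and 1372 ± 171 (SD, n = 3) gave a log2 fold change of −0.13 (SE 0.12, 95% interval −0.41 to 0.15, adjusted p = 0.631 from limma).

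*Gclm* (ENSMUSG00000028124, chromosome 3 from 122245557 to 122270732, plus strand) encodes the modifier subunit of the same ligase, which raises its activity. Its counts were 1330.5, 1369 and 1289 in cKO replicates 1, 2 and 3 and 1750.0, 1598 and 1527 in WT replicates 1, 2 and 3. Every cKO library was below every WT library, and the cKO libraries were close to one another. The cKO mean of 1329.5 ± 39.7 (SD, n = 3) was 81.8% of the WT mean of 1625 ± 114 (SD, n = 3). The log2 fold change was −0.29 (SE 0.08, 95% interval −0.48 to −0.10, adjusted p = 0.258 from limma), and between −0.33 and −0.23 when each library was left out in turn. Limma's array weights, which let libraries that depart from the model count less, gave an adjusted p of 0.0489 (range over all alternatives 0.0489 to 0.513). *Gclm* shares 244 exon bases with the pseudogene *Gm6061*, which was not analysed here, and 296 with *Gm17494* on the other strand, which was at most 13.8 in any library.

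*Gss* (ENSMUSG00000027610, chromosome 2 from 155563181 to 155592810, minus strand) encodes glutathione synthetase, which adds glycine in the last step. It was at 1702, 1983 and 2066 in cKO and at 2504, 2163 and 2119.9 in WT replicates 1, 2 and 3. The genotypes did not overlap, though cKO replicate 3 and WT replicate 3 were close. Means of 1917 ± 191 (SD, n = 3) and 2262 ± 211 (SD, n = 3), or 84.7%, gave a log2 fold change of −0.24 (SE 0.11, 95% interval −0.48 to 0.0031, adjusted p = 0.361 from limma). *Gss* shares 395 exon bases with *Acss2* on the other strand, which itself had −0.30 (adjusted p = 0.595 from limma). *Gssos1* was not analysed here, and *Gssos2*, also antisense, was at most 4.99. Whether strand was used in counting is not stated, and the library kit does not mark strand, so reads from the shared bases cannot be told apart. The ratio of *Gclc* to *Gclm* within a library was 1.03, 0.807 and 0.989 in cKO and 0.887, 0.758 and 0.887 in WT mice, and overlapped (exact permutation test, two-sided p = 0.30).

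*Slc7a11* and *Gclm* are textbook targets of stress-responsive transcription factors, so the 250 bases before their RefSeq starts (GRCm38.p6) are shown, 5′ to 3′ on the strand of the gene. Capitals mark matches to the core of the amino acid response element, TGATGNAA, which ATF4 binds, or of the antioxidant response element, TGACNNNGC, which NRF2 binds, on either strand.
*Slc7a11*, chr3:50443614-50443863, minus strand: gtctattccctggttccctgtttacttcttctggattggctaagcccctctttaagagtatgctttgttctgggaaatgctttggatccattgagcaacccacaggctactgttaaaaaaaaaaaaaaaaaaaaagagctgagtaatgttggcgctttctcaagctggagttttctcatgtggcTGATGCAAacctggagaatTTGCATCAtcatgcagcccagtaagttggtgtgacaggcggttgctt
*Gclm*, chr3:122245307-122245556, plus strand: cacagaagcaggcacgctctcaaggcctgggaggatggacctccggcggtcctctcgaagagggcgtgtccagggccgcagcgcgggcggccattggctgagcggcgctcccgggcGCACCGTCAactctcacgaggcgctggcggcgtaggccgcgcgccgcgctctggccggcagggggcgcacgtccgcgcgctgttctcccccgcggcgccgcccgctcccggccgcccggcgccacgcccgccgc
The *Slc7a11* window holds TGATGCAA from −66 to −59 and, facing it, TTGCATCA from −47 to −40, counted from the start site. An amino acid response core occurs in 3.45% of 32851 promoter windows of this length and 2 or more in 0.0396%. In the *Gclm* window the only match is an antioxidant response core on the other strand, GCACCGTCA, from −134 to −126, and such a core occurs in 10.2% of windows. Of the 10 genes 9 had a promoter entry, *Gclc* being the exception, and in these windows no other gene of the set matched either core. The only windows of *Slc3a2* (chr19:8713898-8714147) and *Aifm2* (chr10:61720399-61720648) lie inside their gene models, so the bases before those models were not searched. Sequence just after the *Slc3a2* window was in no annotated transcript of the gene, nor was that after the *Gpx4* window at chr10:80053761-80054010. The transcript of *Atf4* was at 2540.2, 2840.2 and 2141 in cKO and at 2416, 2529.8 and 2154 in WT mice. *Nfe2l2*, which encodes NRF2, was at 2269, 2756 and 2333 against 2540.0, 2526 and 2412, so the genotypes overlapped for each.

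*Gpx4* (ENSMUSG00000075706, chromosome 10 from 80047166 to 80056439, plus strand) was at 1422, 1629.6 and 1357 in cKO replicates 1, 2 and 3 and at 1502, 1282 and 1411 in WT replicates 1, 2 and 3. In order of level the libraries of the genotypes alternated. Means of 1469.5 ± 142 (SD, n = 3) and 1398 ± 111 (SD, n = 3) gave a log2 fold change of 0.07 (SE 0.10, adjusted p = 0.770 from limma). The 95% interval of the difference ran from −0.16 to 0.30. Without cKO replicate 2, the cKO library with the most *Nedd4l*, the value was −0.0065.

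*Aifm2* (ENSMUSG00000020085, chromosome 10 from 61715263 to 61739260, plus strand) was at 224, 259.8 and 263 in cKO and at 287, 184 and 243 in WT replicates 1, 2 and 3. The WT libraries were the more spread and enclosed all cKO libraries. Its log2 fold change of 0.09 (SE 0.18, 95% interval −0.34 to 0.51, adjusted p = 0.852 from limma) became −0.09 without WT replicate 2. *Aifm2* shares 233 exon bases with *H2afy2* on the other strand, which was at most 48.9 in any library.

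The genes that supply lipid substrate came next. *Acsl4* (ENSMUSG00000031278, chromosome X from 142317993 to 142390535, minus strand) encodes the ligase that activates arachidonate and related fatty acids. It was at 944, 578 and 688 in cKO and at 701, 513 and 514 in WT replicates 1, 2 and 3. cKO replicate 1 was highest, and WT replicate 1 was above the other cKO libraries. Means of 737 ± 188 (SD, n = 3) and 576 ± 108 (SD, n = 3) gave a log2 fold change of 0.34 (SE 0.20, 95% interval −0.14 to 0.82, adjusted p = 0.470 from limma), which was 0.15 without cKO replicate 1. The neutrophil, fibroblast, B cell and endothelium sums given above were also highest in cKO replicate 1. The part of these cells in the *Acsl4* value was not tested.

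*Lpcat3* (ENSMUSG00000004270, chromosome 6 from 124663027 to 124704418, plus strand) encodes the acyltransferase that inserts these fatty acids into lysophospholipids. Its counts, 1776, 1708 and 1751 in cKO and 1565, 1597 and 1653 in WT replicates 1, 2 and 3, were the least spread of the set. All cKO libraries were above all WT libraries, by a small margin. Means of 1745 ± 34.5 (SD, n = 3) and 1605 ± 44.2 (SD, n = 3), or 109%, gave a log2 fold change of 0.12 (SE 0.07, 95% interval −0.04 to 0.28, adjusted p = 0.460 from limma). It lay between 0.10 and 0.14 with each library left out. *Lpcat3* shares 334 exon bases with *Emg1* on the other strand, which itself had −0.11 (adjusted p = 0.604 from limma).

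*Acsf2* (ENSMUSG00000076435, chromosome 11 from 94557102 to 94601871, minus strand) encodes a mitochondrial acyl-CoA synthetase used as a ferroptosis marker. It was at 966, 1602 and 1132 in cKO and at 1650.2, 1197 and 1456 in WT replicates 1, 2 and 3. cKO replicates 1 and 3 were below all WT libraries and replicate 2 was not. Means of 1233 ± 329.8 (SD, n = 3) and 1434.5 ± 227 (SD, n = 3) gave a log2 fold change of −0.24 (SE 0.20, 95% interval −0.72 to 0.24, adjusted p = 0.611 from limma). It was −0.44 without cKO replicate 2 and −0.08 without cKO replicate 1. Markers of mature colonocytes, such as the anion exchanger gene *Slc26a3*, summed to 30843, 58886 and 29372 in cKO and to 65667, 61911 and 47286 in WT mice, and cKO replicates 1 and 3 were the lowest libraries here as for *Acsf2*. All 7 of these markers were lower by log2 fold change and 0 passed an unadjusted p of 0.05, against 14% of all genes. Their part in the *Acsf2* value was not tested.

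**Figure D3:**
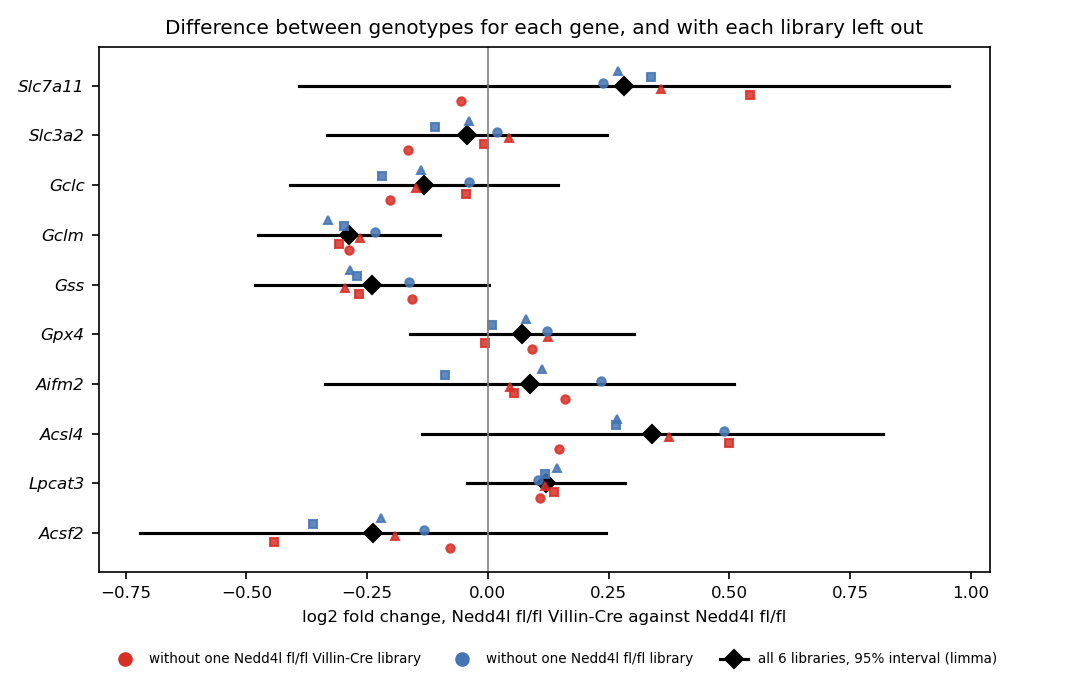
Log2 fold change of cKO against WT mice (x axis) for each of the 10 genes; black diamonds and lines are the estimate and 95% interval from limma on 6 libraries, and colored symbols the estimate with 1 cKO (red) or 1 WT library (blue) left out, the shape giving the replicate as a circle, square or triangle for 1, 2 or 3. The interval of *Gclm* (−0.48 to −0.10) is the only one without 0, and no gene passed an adjusted p of 0.05.

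The surrounding pathway was read from lists of genes, none of which had a gene at an adjusted p under 0.05. The lists were chosen with earlier results of these data known. Their shares beside those of all genes are therefore a description and not a test. Of 19 genes of cysteine supply and glutathione use, 2 were lower and 4 higher with an unadjusted p under 0.05, which is 31.6% against 14% of all genes. *Me1*, malic enzyme, which makes NADPH, was at 392, 228 and 363 in cKO and at 163, 196 and 141 in WT mice (log2 fold change 0.95, adjusted p = 0.211 from limma). *Ggt1*, which cleaves extracellular glutathione, was at 206, 66.3 and 100.1 against 29.6, 27.0 and 44.9 (1.72, adjusted p = 0.214 from limma). *Slc1a5*, the glutamine importer ASCT2, was at 2630.3, 3058 and 2812 against 3378, 3309 and 3659.6 (−0.28, adjusted p = 0.276 from limma). *Gsr*, glutathione reductase, was at 3081, 2650.0 and 2951 against 3217, 3502 and 3303 (−0.21, adjusted p = 0.339 from limma). The genotypes did not overlap for any of these genes, but they were named for the smallest p or, for *Gsr*, after its values were seen. Of the 19 genes, 31.6% did not overlap, against 21.4% of all genes.

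Enzymes and transporters beside *Gpx4* were read next. Among 20 genes of other peroxide and quinone routes, 6 were lower and 6 higher with an unadjusted p under 0.05. This is 60% against 14% of all genes, and 65% did not overlap against 21.4%. This list too was chosen with earlier results known, so these shares do not test it. On the lower side stood *Coq2*, of ubiquinone synthesis, at 872, 915 and 892 in cKO and 1027, 1255 and 1113 in WT mice (log2 fold change −0.34, adjusted p = 0.256 from limma). *Stard7*, which carries phosphatidylcholine and ubiquinone, was at 1843, 1895 and 1783 against 2217, 2403 and 2236 (−0.31, adjusted p = 0.211 from limma). *Dhodh*, whose product reduces ubiquinone in mitochondria, was at 215, 210.1 and 178 against 245, 297 and 291 (−0.46, adjusted p = 0.280 from limma). The quinone reductase genes *Nqo1* (−0.46) and *Vkorc1l1* (−0.23) did not overlap either. The list as a whole held as many genes lower as higher at the unadjusted threshold.

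On the higher side, *Mboat2*, a phospholipid-remodeling acyltransferase, was at 123, 158 and 84.6 in cKO against 53.3, 41.4 and 50.9 in WT mice (log2 fold change 1.27, adjusted p = 0.192 from limma). Of the other glutathione peroxidases, *Gpx1*, *Gpx3*, *Gpx7* and *Gpx8* had log2 fold changes of 0.25, 1.01, 0.79 and 0.76 without overlap, and *Gpx2*, the epithelial enzyme, had 0.12 with overlap. *Gpx3*, which is secreted, was at 2238, 931 and 1013 against 663, 518 and 757 (adjusted p = 0.330 from limma). For *Gpx3*, *Gpx7* and *Gpx8*, cKO replicate 1 was the highest library, as it was for the summed fibroblast markers. Among these markers *Lum* was the exception, at 246 in cKO replicate 1 and 349 in WT replicate 1. The part of fibroblasts in the *Gpx3*, *Gpx7* and *Gpx8* values was not tested.

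Of 25 genes for lipid substrates and their oxidation 21 were tested. At an unadjusted p under 0.05, 4 were lower and 2 higher (28.6%, against 14% of all genes). *Fads1*, the desaturase of the last step to arachidonate, was at 744, 794 and 763 in cKO and 1167, 1494 and 1551 in WT mice, well apart. Its log2 fold change of −0.86 had an adjusted p of 0.116 from limma, and passed 0.05 without a filter on low values, with array weights and without cKO replicate 2 (range 0.00946 to 0.486). *Agps*, of ether lipid synthesis, was at 3203, 2183 and 2317 against 1945, 1837 and 1633 (0.49, adjusted p = 0.278 from limma). *Sat1*, a polyamine acetyltransferase, was at 3262, 3017 and 2936 against 2763, 2529 and 2544 (0.23, adjusted p = 0.301 from limma). Of the lipoxygenase genes, *Alox12e*, *Alox8* and *Aloxe3* were below the filter, and *Alox12b* was not analysed here.

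GPX4 protein depends on selenium supply and selenocysteine insertion. A list of 10 genes of these steps also holds the selenoprotein P receptor gene *Lrp8* and the selenoprotein genes *Selenop* and *Selenoi*. Its median log2 fold change was −0.21. At an unadjusted p under 0.05, 2 were lower and 0 higher (20%, against 14% of all genes). *Sephs2*, which makes the selenium donor, was at 736, 832 and 823 in cKO and 1003, 1008.5 and 1011.5 in WT mice (−0.34, adjusted p = 0.211 from limma). *Sepsecs*, which forms selenocysteine on its tRNA, was at 747, 799 and 825 against 930.3, 1027 and 917 (−0.28, adjusted p = 0.281 from limma). *Eefsec*, the elongation factor of this tRNA, had −0.30 without overlap (adjusted p = 0.383 from limma).

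Among 14 regulators, 2 were lower and 0 higher with an unadjusted p under 0.05 (14.3%, against 14% of all genes). They were *Srebf1*, of lipid synthesis, at 2323, 1858 and 2286 in cKO against 2877, 3133 and 3278 (log2 fold change −0.53, adjusted p = 0.172 from limma), and *Trp53*, at 983, 840.2 and 802 against 1085, 1096 and 1114 (−0.33, adjusted p = 0.263 from limma). *Nf2* had −0.10 without overlap (adjusted p = 0.522 from limma). Of 16 iron genes, 1 was lower and 1 higher (12.5%, against the same 14% of all genes). *Slc40a1*, the iron exporter ferroportin, was at 2820.1, 2537 and 3135 in cKO against 1609.7, 1741 and 2129 (0.64, adjusted p = 0.169 from limma). *Pcbp1*, an iron chaperone, was at 4882, 5125 and 4716 against 5669.6, 5716 and 5529.8 (−0.20, adjusted p = 0.310 from limma). *Hmox1*, which frees iron from heme, was at 317, 104 and 161 against 115, 88.2 and 109.8, and cKO replicate 1 was again the highest (0.75, adjusted p = 0.418 from limma). Macrophages also express *Slc40a1* and *Hmox1*. All 9 monocyte and macrophage markers were higher in cKO mice by log2 fold change, from 0.03 for *Mrc1*, 0.10 for *Csf1r* and 0.16 for *Adgre1* to 1.63 for *Ly6c2*. At an unadjusted p under 0.05, 3 were higher and 0 lower (33.3%, against 14% of all genes). No marker was at 0 in all WT libraries. The 9 markers summed to 9298, 11182 and 8972 in cKO and to 9194, 5129 and 7601 in WT mice, which overlap. Their part in the *Slc40a1* and *Hmox1* values was not tested.

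**Figure D4:**
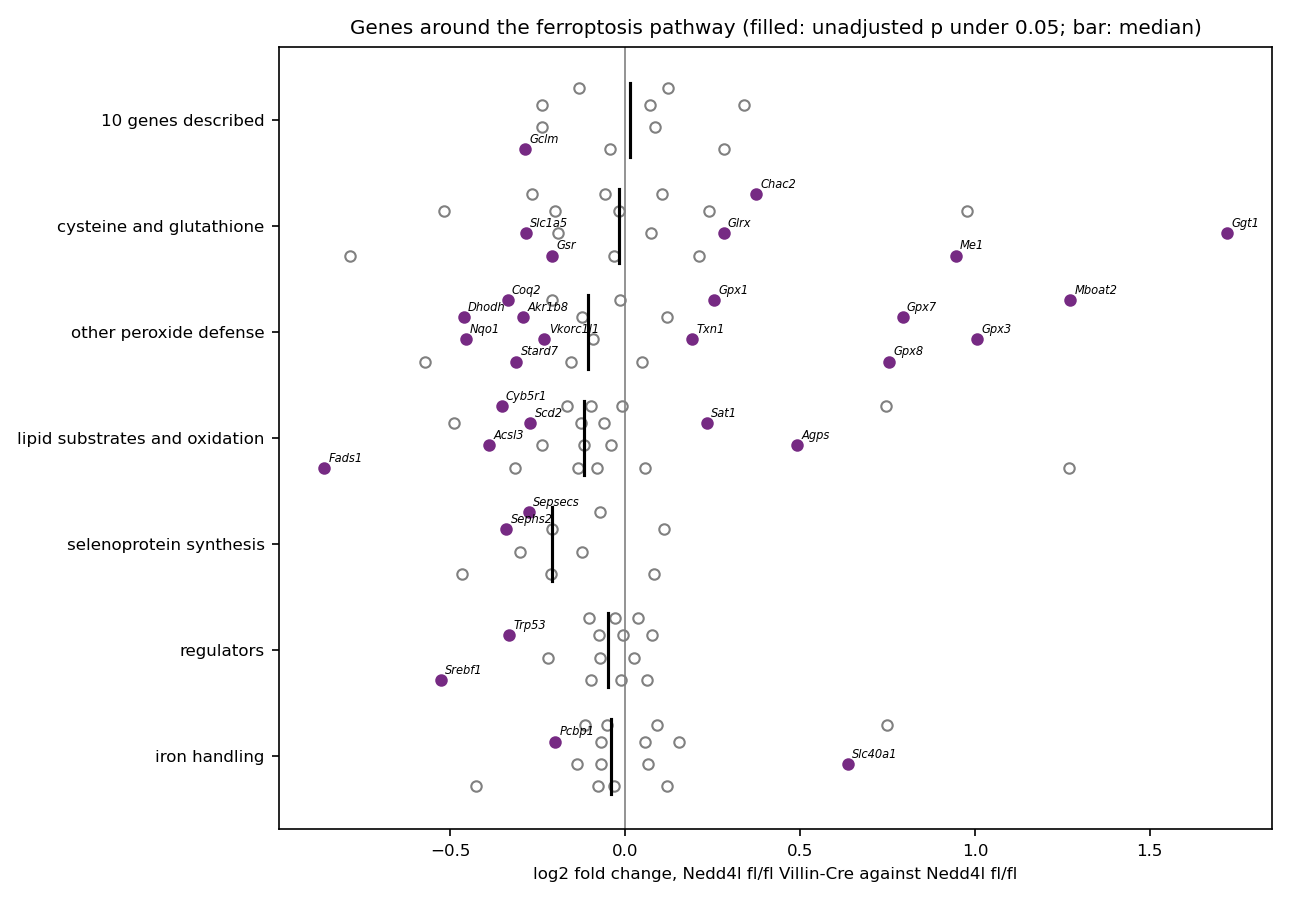
Log2 fold change of cKO against WT mice (x axis) for the tested genes of each list (rows); filled points have an unadjusted p under 0.05 and are named, open points do not, and the black bar is the median of the list. Of the 10 genes *Gclm* alone is filled, against 12 of 20 genes of other peroxide defense, 6 on each side of 0. The lists were chosen with earlier results of these data known.

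Transcripts that the study also examined were set beside the 10 genes. *Ptgs2*, of prostaglandin synthesis, was at 362, 203 and 292 in cKO and at 107, 119 and 60.9 in WT mice, without overlap (log2 fold change 1.59, adjusted p = 0.169 from limma). *Lcn2*, lipocalin 2, was at 952, 40.9 and 175 against 39.5, 53.1 and 87.9, so cKO replicate 2 was among the WT libraries (1.73, adjusted p = 0.521 from limma). *Tfrc*, the transferrin receptor, and *Ncoa4*, which delivers ferritin for breakdown, overlapped, with log2 fold changes of 0.15 (adjusted p = 0.610 from limma) and 0.06 (adjusted p = 0.798 from limma). *Ccnd1*, cyclin D1, had −0.15 (adjusted p = 0.581 from limma). The proliferation markers *Pcna*, *Mcm2* and *Mcm5* were below all WT libraries in every cKO library, and *Ccnb1* was above them. Of all genes, 10.9% were below and 10.5% above in this way. *Mki67* (log2 fold change −0.10), *Top2a* (−0.15) and *Cdk1* (0.06) overlapped. The list of 7 summed to between 15163 and 16442 in cKO against 18247 to 19417 in WT mice.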

How the data were processed

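RNA from colonic tissue of 3 *Nedd4l* fl/fl VillinCre and 3 *Nedd4l* fl/fl mice was sequenced after a NEBNext Ultra RNA library preparation. The authors deposited a normalized count per gene and library, a signal that is reads divided by a size factor. The submitters' processing notes name HISAT2 2.0.5, featureCounts 1.5.0-p3 and hg18. Identifiers and coordinates are mouse, however: 97% of genes have those of GENCODE mouse release M21 on GRCm38. The table also holds the authors' genotype means, log2 fold changes and p-values and adjusted p-values as deposited, which were not used. In units of each library's smallest value, of which every value was a whole multiple (within 1e-4), totals ran from 14914367 to 17547270, which are reads only if that value is 1 read. Counting error is part of each SD, and for genes whose libraries are close together, such as *Lpcat3* and *Gclm* in cKO mice, the SD is near the square root of the value, which is about the size of counting error.

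Log2(value + 1) was fitted in limma 3.58.1 (R 4.3.3, eBayes with trend and robust settings) over genes with a mean of at least 10, with a threshold of 0.05. The pseudocount slightly understates fold changes of low genes. On simulated data over 16036 to 16071 genes with 200 changed, 51.3% of those shifted by 1 on the log2 scale and 78.7% of those shifted by 2 were recovered, and 6.48% of calls were false. In the simulation each gene varied independently, without differences that many genes of a library share. These rates therefore need not hold for the real libraries. Single ratios were compared by exact permutation tests (scipy 1.17.1), and figures drawn with matplotlib 3.10.9. The 10 genes and the lists were chosen with earlier results of these data known. Named were the 10 genes, *Nedd4l*, *Tfrc*, *Ptgs2*, *Lcn2*, *Ncoa4*, *Ccnd1*, the partners of SLC3A2, and in each other list the 3 genes with the smallest p; others, among them *Gsr*, *Dhodh*, *Nqo1*, *Vkorc1l1*, *Gpx1*, *Gpx2*, *Gpx3*, *Gpx7*, *Gpx8*, *Atf4* and *Nfe2l2*, were chosen after their values were seen. Alternatives were other pseudocounts, filters, scalings and models, a replicate block, and leaving out each library. That the samples are separate mice rests on the titles, which number them, and p-values measure the spread between these samples.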

Additional observations from a re-analysis of the deposited data

How the results depend on the processing

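Over 16 alternatives, 6 of the 10 genes kept the sign of their log2 fold change, as did 33 of the 38 genes named by rule. *Gpx4* turned to −0.014 with array weights and *Slc7a6* to −0.14. With each library left out in turn, *Gpx4* ranged from −0.0065 to 0.13, *Slc7a11* from −0.056 to 0.54, *Slc3a2* from −0.17 to 0.044, *Aifm2* from −0.088 to 0.23 and *Slc7a6* from −0.070 to 0.20. Among all genes, the 0 lower and 0 higher became 23 and 7 without a filter and 369 and 262 with array weights, which called 1 of the 10 genes lower (*Gclm*, adjusted p = 0.0489 from limma). Leaving out a library gave 0 to 52 lower (22 without cKO replicate 1, 52 without cKO replicate 2) and 0 to 70 higher genes (2 and 70), and no call among the 10 genes. The median log2 fold change of the 10 genes ranged from −0.099 to 0.061 in these fits, the lowest without WT replicate 2. The cause of these changes was not tested. The replicate numbers are not stated to pair the samples. Deviations of same-numbered libraries correlated at −0.029, −0.090 and −0.056, and those of differently numbered libraries at between −0.024 and 0.064. With 3 libraries per genotype, such values cannot decide whether any samples are paired. With a replicate block 0 genes were lower and 0 higher, the median of the 10 genes was 0.014, and no call changed. The 2 planned fits of count models were not run, because reads were not taken as recovered. The step of 1 library, 0.999, was too close to 1 for the check that was set, although its values were whole multiples of that step within 1e-4. The log2 fold changes of the 10 genes, at most 0.34 in size, are smaller than any change simulated, so the power to detect them was not measured.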
